A study of Mus musculus with 8 samples.

Results

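The genes described here are the netrin receptors and their ligands: the 4 *Unc5* receptor genes (*Unc5a*, *Unc5b*, *Unc5c* and *Unc5d*), the receptor genes *Dcc* and *Neo1*, and the netrin genes *Ntn1* and *Ntn4*, 8 of the 45706 genes quantified. *Unc5b* was chosen by its measured level in these same wells, because it was lower in neurons treated with melanin-concentrating hormone (MCH) than with vehicle, so its difference between these treatments is given as a description with no test. The other 7 were added because they belong to the same receptor family, act beside it or bind to it. The data are bulk RNA-seq of hippocampal neurons from wild-type (*Wt*) C57/Bl6 mouse embryos at embryonic day 18. The neurons were kept in culture for 12 to 14 days and received 1 µM MCH, or H2O as vehicle, for 4 h. Each treatment has 4 wells, named replicates 1 to 4, taken from 2 cultures that gave 2 wells to each treatment. Which culture a replicate came from is given neither by the sample labels nor by the methods, so *P* values measure the spread between wells. The labels carry a disease model tag for Alzheimer's disease beside a wild-type genotype, and the methods describe wild-type neurons.

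Netrins are secreted proteins related to laminin that guide growing axons. DCC carries the attractive response to netrin-1, whereas UNC5 receptors, alone or together with DCC, carry repulsion. UNC5 receptors and DCC are also called dependence receptors, because without ligand they can start cell death. Neogenin, the product of *Neo1*, resembles DCC and binds repulsive guidance molecules as well as netrins. In the adult hippocampus DCC and netrin-1 take part in synaptic plasticity, and UNC5B is best known outside the nervous system, in the endothelial cells of sprouting vessels.

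*Unc5a* was the receptor with the highest level per transcript length, and nearly all of its reads were assigned to a transcript that lacks a coding exon. The exon is shown because it is what parts the 2 main *Unc5a* transcripts of these neurons. It is exon 6 of 16 of the long transcript Unc5a-201 (ENSMUST00000026994, 3995 bases), lies at chr13:54997193-54997360 on the plus strand of GRCm38 and is 168 bases long. It is wholly coding, adds 56 codons without a shift of frame, and encodes a thrombospondin type 1 repeat of the extracellular part of the receptor. The bases, from the GENCODE vM21 transcript, read 5′ to 3′, with the exon in capitals and the 15 transcript bases on either side of it, from the neighbouring exons, in lower case.

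Unc5a exon 6: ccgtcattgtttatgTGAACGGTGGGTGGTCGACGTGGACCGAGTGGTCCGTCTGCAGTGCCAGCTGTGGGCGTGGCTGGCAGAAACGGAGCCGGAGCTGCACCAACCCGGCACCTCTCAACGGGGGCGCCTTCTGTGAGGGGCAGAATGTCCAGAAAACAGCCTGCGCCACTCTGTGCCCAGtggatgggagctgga

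Unc5a-202 (ENSMUST00000109994, 3827 bases), in which the lower-case stretches join directly, held 93.7 ± 1.16% of the estimated counts of *Unc5a* in vehicle-treated wells and 93.4 ± 1.46% in MCH-treated wells (mean ± SD, n = 4). Unc5a-201, which carries the exon, held 5.0 ± 0.872% with vehicle and 5.61 ± 1.66% with MCH. The short form thus had the larger share in all 8 wells of both treatments. The estimated counts were 2607, 2939, 3841 and 3355 for Unc5a-202 in vehicle replicates 1 to 4, and 3518, 3038, 4108 and 3592 in MCH replicates 1 to 4. For Unc5a-201 they were between 149 and 188 with vehicle and between 165 and 264 with MCH. The transcripts share most of their sequence, so that the split between them rests on how salmon divided the shared reads. Neither transcript passed the test between treatments by edgeR's quasi-likelihood test after Benjamini–Hochberg adjustment, with log2 fold changes of 0.08 for Unc5a-202 (SE, standard error, 0.12) and 0.25 for Unc5a-201 (SE 0.20) and an adjusted *P* of 1.00 for each.

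The library totals were between 26083936 and 31844861 estimated counts per well, and all 8 genes passed the filter on low counts that left 14962 genes. Once each well was centred on its treatment, a first principal component with 59.8% of the variance set replicates 1 and 2 apart from replicates 3 and 4. Astrocyte markers (*Gfap*, *Aqp4*, *Aldh1l1*, *Slc1a3* and *S100b*) summed to 284 to 384 CPM (counts adjusted for library size) in replicates 1 and 2 and to 1261 to 1420 CPM in replicates 3 and 4, whereas 6 general neuronal markers summed to 5820 to 5997 and 5540 to 5661 CPM. Endothelial markers were near absent: 8 of them summed to between 2.87 and 5.97 CPM in all, and 7 stayed under 1 CPM in every well. Excitatory neuron markers summed to 2546 to 3432 CPM over the 8 wells, inhibitory neuron markers to 1751 to 2188 CPM and Cajal-Retzius cell markers to 398 to 624 CPM. Nearly all of the Cajal-Retzius sum came from *Reln* (269 to 476 CPM) and *Calb2* (125 to 146 CPM). The other markers of that list were low, *Trp73* at 1.02 to 2.49 CPM and *Lhx1* and *Lhx5* under 1 CPM in every well. Markers of mural cells and fibroblasts summed to 28.6 to 38.7 CPM in replicates 1 and 2 and 84.6 to 86.1 CPM in replicates 3 and 4, and those of the oligodendrocyte lineage to 56.9 to 67.1 and 125 to 146 CPM. Most of the mural cell and fibroblast sum came from *Rgs5* (11.3 to 33.9 CPM) and *Dcn* (12.9 to 43.5 CPM), while *Kcnj8* and *Acta2* stayed under 1 CPM in every well. Microglial markers summed to 3.26 to 5.55 CPM, and the oligodendrocyte gene *Sox10* was at 0 in all wells. In bulk RNA, fewer cells of a type and less RNA per cell cannot be told apart. *Mchr1*, the receptor for MCH, was present, at 9.91 ± 0.82 CPM in vehicle-treated and 9.70 ± 0.297 CPM in MCH-treated wells.

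Levels between genes were compared as TPM, an abundance scaled for transcript length and depth. With vehicle, *Unc5a* stood first at 67.1 ± 9.96 TPM and *Neo1* second at 38.4 ± 3.44 TPM, at percentiles 80.9 and 69.3 of the genes tested. *Unc5d* at 17.0 ± 0.955 TPM and *Dcc* at 16.3 ± 0.81 TPM came next, and their wells overlapped. *Unc5b* at 12.7 ± 1.51 TPM and *Unc5c* at 12.3 ± 0.767 TPM overlapped as well, while the steps from *Dcc* to *Unc5b* and from *Unc5c* to *Ntn4* did not. Both ligand genes stood below every receptor gene, *Ntn4* at 4.71 ± 1.04 TPM and *Ntn1* at 1.32 ± 0.406 TPM. With vehicle, each receptor gene thus had more transcript per length than *Ntn4* and *Ntn1*, and the other netrin genes were not compared in TPM. With MCH, *Unc5a* (69.5 ± 8.82 TPM) and *Neo1* (41.5 ± 1.76 TPM) kept the first places, followed by *Dcc* (18.8 ± 2.14 TPM) and *Unc5d* (17.6 ± 0.938 TPM), whose wells again overlapped. *Unc5c* at 13.7 ± 1.16 TPM then stood above *Unc5b* at 8.21 ± 1.04 TPM in every well, and the lowest *Unc5b* well, at 6.77 TPM, lay below the highest *Ntn4* well, at 6.93 TPM. The order within each treatment was the same when CPM per kilobase of the longest transcript was used in place of TPM.

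**Figure D1:**
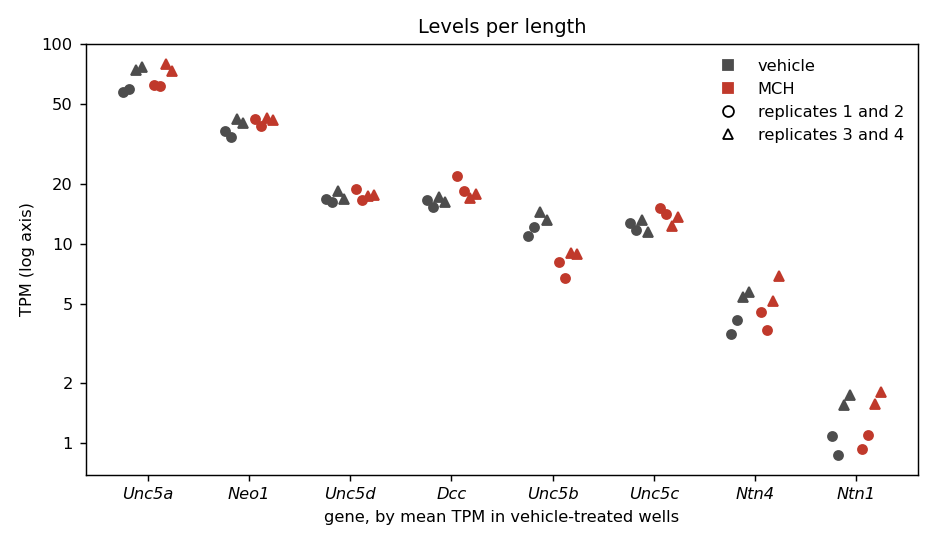
Level per transcript length (TPM, log axis) of the 8 genes in each well, ordered by the mean in vehicle-treated wells, with circles for replicates 1 and 2 and triangles for replicates 3 and 4. *Unc5a* and *Neo1* lie above the other receptors, and the netrin genes have the lowest means in both treatments. Only *Unc5b*, which was chosen for its difference between treatments, has all MCH-treated wells below all vehicle-treated wells.

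*Unc5b* (ENSMUSG00000020099, chr10:60762593-60831581 of GRCm38, minus strand) encodes one of the repulsive netrin receptors. Its level was 36.4, 40.8, 47.7 and 43.4 CPM in vehicle replicates 1 to 4, and 26.5, 22.2, 29.4 and 29.1 CPM in MCH replicates 1 to 4. The highest MCH-treated well lay below the lowest vehicle-treated well, with means of 42.1 ± 4.72 and 26.8 ± 3.33 CPM. The log2 fold change was −0.65 (SE 0.11), and it was −0.67 between the means of replicates 1 and 2 and −0.63 between those of replicates 3 and 4. In the whole table, 443 of 14962 genes (2.96%) had all MCH-treated wells below all vehicle-treated wells. Nothing is read from that share for *Unc5b*, which was chosen for this difference. The reads behind these values were 940 to 1352 estimated counts per vehicle-treated well and 592 to 851 per MCH-treated well, all on the single annotated transcript of the tables.

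Seen within its family, *Unc5b* made up 11.6 ± 0.578% of the summed *Unc5* TPM with vehicle and 7.51 ± 0.479% with MCH. The shares of *Unc5a* were 61.4 ± 2.80% and 63.6 ± 3.29%, those of *Unc5c* 11.3 ± 1.36% and 12.7 ± 1.92%, and those of *Unc5d* 15.7 ± 1.30% and 16.2 ± 1.51%. The 4 shares add up to the whole, so that a lower share of *Unc5b* raises those of its relatives in sum, and in each of the 3 the wells of the treatments overlapped. The ratio of *Unc5b* to *Unc5c* TPM was 1.04 ± 0.123 with vehicle and 0.603 ± 0.114 with MCH. The sum over the 4 genes, which *Unc5a* dominates, was 109 ± 11.9 TPM with vehicle and 109 ± 8.65 TPM with MCH.

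Among the 7 other genes, 0 passed the test between MCH and vehicle at an adjusted *P* under 0.05 by edgeR's quasi-likelihood test, *P* values being Benjamini–Hochberg adjusted, where 0.234% of the 14962 genes did (35 genes). DESeq2 called 0 of the 7 as well (0.651% of its genes passed), as did DESeq2 with an offset for transcript length (0.494%), edgeR with the replicate number as a block (3.98%) and edgeR with a block for replicates 1 and 2 against 3 and 4 (4.46%). Without adjustment, *Unc5c* and *Dcc* had a *P* under 0.05, 2 of the 7, as did 1272 of the 14962 genes tested. In all 7 the treatments overlapped, whereas 6.03% of the genes tested had no overlap. The estimates were higher with MCH in 6 of the 7, as were 7325 of the 14962 genes tested. Their median was 0.09 on the log2 scale, against −0.0027 over all genes.

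**Figure D2:**
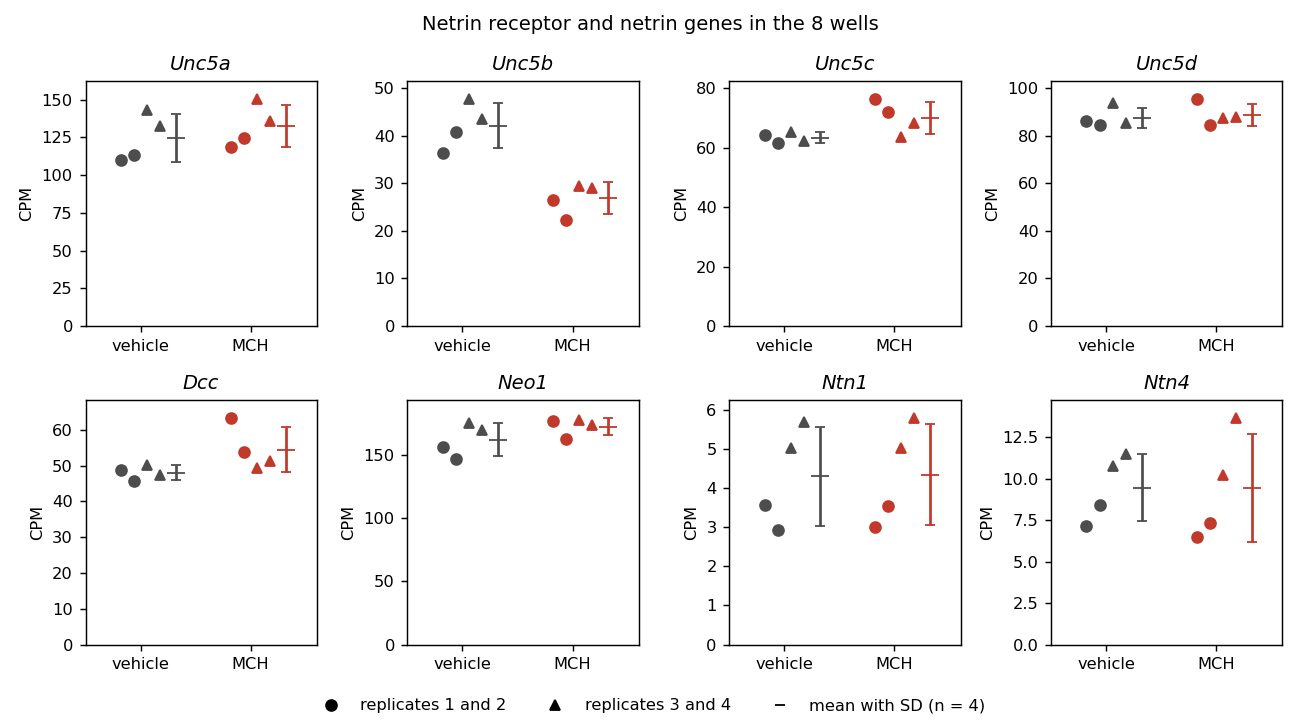
Level in CPM of each gene in the 4 vehicle-treated and 4 MCH-treated wells, with the mean and SD beside the wells, on axes that start at 0. The treatments are apart in *Unc5b*, which was chosen for this difference, from 36.4 CPM upward with vehicle and up to 29.4 CPM with MCH. They overlap in the other 7 genes.

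*Unc5a* (ENSMUSG00000025876, chr13:54949411-55006018, plus strand) encodes a receptor found mainly in neurons. Its wells measured 110, 113, 143 and 133 CPM with vehicle and 119, 125, 150 and 136 CPM with MCH, in replicates 1 to 4. In both treatments replicates 3 and 4 were the higher wells. The log2 fold change was 0.09 (SE 0.10, adjusted *P* = 0.922 by edgeR's quasi-likelihood test). It was 0.03 with an offset for transcript length in edgeR or DESeq2, and lay between 0.03 without MCH replicate 3 and 0.16 without vehicle replicate 3.

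*Unc5c* (ENSMUSG00000059921, chr3:141465216-141834924, plus strand) is the family member whose loss in mice disturbs the migration of cerebellar neurons. Its wells measured 64.5, 61.7, 65.4 and 62.2 CPM with vehicle and 76.4, 72.0, 63.5 and 68.4 CPM with MCH. MCH replicates 1, 2 and 4 were above every vehicle-treated well, whereas MCH replicate 3 lay among them. The log2 fold change was 0.14 (SE 0.06, unadjusted *P* = 0.031 and adjusted *P* = 0.522 by edgeR's quasi-likelihood test). In the same test, the adjusted *P* of *Unc5c* was 0.0991 with the replicate block and 0.0777 with the block for the pairs of replicates. By transcript, Unc5c-202 held 95.3 ± 2.36% of its estimated counts with vehicle and 95.4 ± 0.902% with MCH.

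*Unc5d* (ENSMUSG00000063626, chr8:28646717-29219636, minus strand) encodes a receptor that also binds the cell surface protein FLRT2. Its wells measured 86.2, 84.7, 93.8 and 85.6 CPM with vehicle and 95.5, 84.4, 87.4 and 88.1 CPM with MCH. A single well in each treatment stood above the rest, replicate 3 with vehicle and replicate 1 with MCH. The log2 fold change was 0.02 (SE 0.05, adjusted *P* = 0.994 by edgeR's quasi-likelihood test).

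*Dcc* (ENSMUSG00000060534, chr18:71253634-72351069, minus strand), which encodes the attractive receptor, had the largest estimate of the 7. Its wells measured 48.8, 45.6, 50.3 and 47.5 CPM with vehicle and 63.4, 53.7, 49.3 and 51.2 CPM with MCH. MCH replicates 1, 2 and 4 were above every vehicle-treated well, replicate 1 by far the most, and MCH replicate 3 lay below the highest of them. The log2 fold change was 0.18 (SE 0.08, unadjusted *P* = 0.040 and adjusted *P* = 0.559 by edgeR's quasi-likelihood test). It lay between 0.10 without MCH replicate 1 and 0.23 without MCH replicate 3. By edgeR's quasi-likelihood test, the adjusted *P* of *Dcc* was 0.115 with the replicate block and 0.177 with the block for the pairs of replicates.

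*Neo1* (ENSMUSG00000032340, chr9:58874687-59036441, minus strand), the gene of neogenin, measured 156, 147, 176 and 170 CPM with vehicle and 177, 163, 178 and 174 CPM with MCH. Vehicle replicates 1 and 2 were the lowest of the 8 wells, and the other vehicle-treated wells lay among those with MCH. Its log2 fold change was 0.09 (SE 0.06, adjusted *P* = 0.764 by edgeR's quasi-likelihood test), between 0.05 without vehicle replicate 2 and 0.14 without vehicle replicate 3.

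*Ntn1* (ENSMUSG00000020902, chr11:68209364-68400823, minus strand) encodes netrin-1, and its wells measured 3.56, 2.94, 5.01 and 5.68 CPM with vehicle and 3.00, 3.53, 5.02 and 5.79 CPM with MCH. *Ntn4* (ENSMUSG00000020019, chr10:93640681-93747207, plus strand) encodes netrin-4, a netrin of basement membranes that binds laminin, and measured 7.13, 8.44, 10.8 and 11.5 CPM with vehicle and 6.48, 7.36, 10.2 and 13.7 CPM with MCH. In both genes replicates 3 and 4 were above replicates 1 and 2 in either treatment. The log2 fold changes were 0.01 (SE 0.26) for *Ntn1* and −0.0049 (SE 0.25) for *Ntn4*, each with an adjusted *P* of 1.00 by edgeR's quasi-likelihood test. These were the largest SE of the 8 genes, and with the replicate block they were 0.12 for *Ntn1* and 0.09 for *Ntn4*. The wells held 81 to 165 estimated counts of *Ntn1* and 184 to 390 of *Ntn4*.

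**Figure D3:**
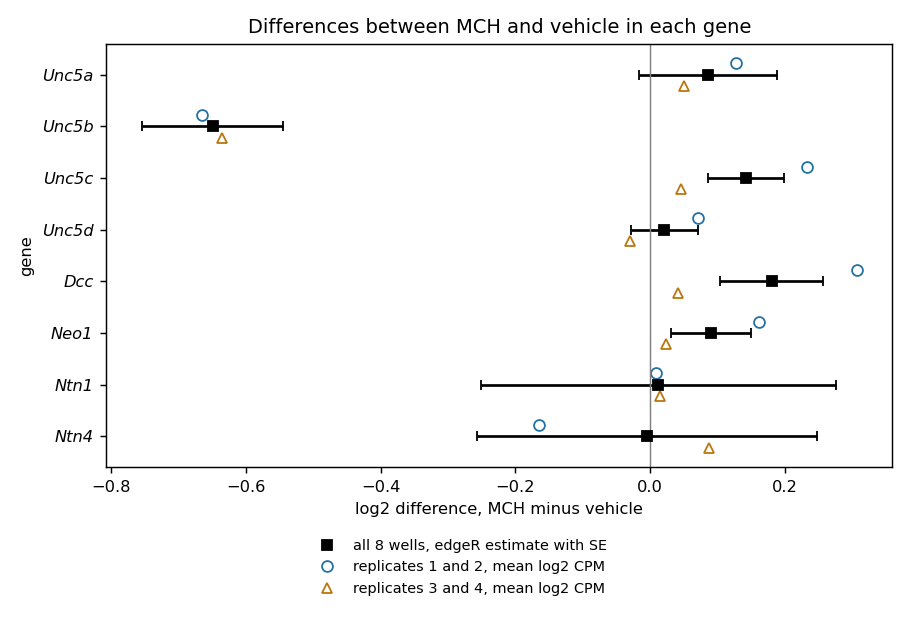
Difference between MCH and vehicle on the log2 scale for each gene, as the edgeR estimate over all 8 wells with its SE (squares) and as the difference of mean log2 CPM within replicates 1 and 2 (circles) and within replicates 3 and 4 (triangles). *Unc5b* lies at −0.65 with all 3 symbols together, and *Dcc* and *Unc5c* have their larger difference in replicates 1 and 2.

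The differences were also taken within each pair of replicates, because the pairs stood apart. *Dcc* was higher with MCH by 0.31 on the log2 scale in replicates 1 and 2 and by 0.04 in replicates 3 and 4. *Unc5c* was higher by 0.23 and 0.05, and *Neo1* by 0.16 and 0.02. In these 3 genes the estimate was larger in replicates 1 and 2, but the inequality did not pass its own test. An interaction term for it, added after the data were seen, gave −0.27 (SE 0.10) for *Dcc*, −0.19 (SE 0.08) for *Unc5c* and −0.14 (SE 0.07) for *Neo1*, with adjusted *P* values of 0.585, 0.622 and 0.646 by edgeR's quasi-likelihood test. For *Ntn4* the differences were −0.17 and 0.09, and for *Unc5d* 0.07 and −0.03.

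The pairs, which were themselves read from these counts, differed in the level of some of these genes. Replicates 3 and 4 were above replicates 1 and 2 in both treatments, with no overlap of wells, in 3 of the 8 genes (*Unc5a*, *Ntn1* and *Ntn4*), as were 16.6% of all genes tested. *Ntn1* was higher by 0.71 with vehicle and 0.72 with MCH on the log2 scale, *Ntn4* by 0.52 and 0.77, and *Unc5a* by 0.31 and 0.23. *Unc5b* was higher by 0.24 and 0.27 with overlap of wells. The 5 astrocyte markers were all higher in replicates 3 and 4, with a median of 1.90 with vehicle and 2.18 with MCH, and so were 6 of the 7 tested markers of mural cells and fibroblasts without overlap. The part of these cells in the levels of the netrin genes was not tested. Between treatments, the summed astrocyte markers were 341 to 384 CPM with vehicle and 284 to 314 CPM with MCH in replicates 1 and 2, and 1261 to 1308 and 1360 to 1420 CPM in replicates 3 and 4.

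**Figure D4:**
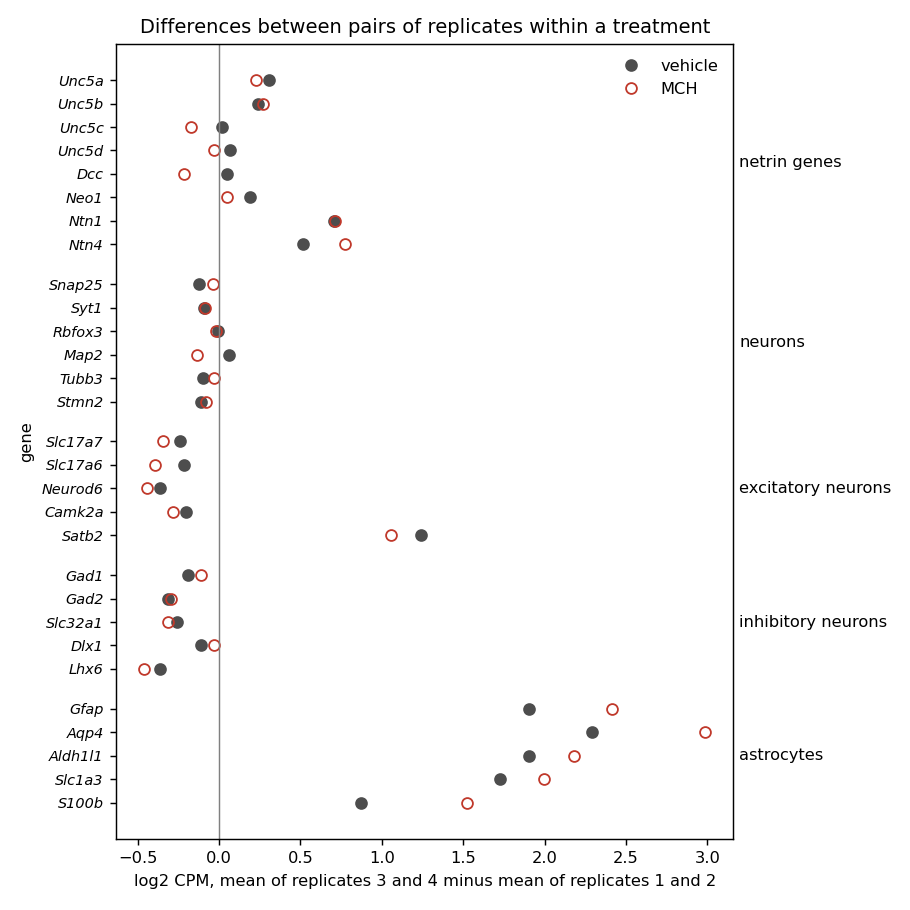
Difference in mean log2 CPM between replicates 3 and 4 and replicates 1 and 2 within each treatment, for the 8 netrin genes and for markers of neurons and astrocytes. *Ntn1* and *Ntn4* lie between 0.52 and 0.77, and the astrocyte markers between 0.87 and 2.99.

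The partners of netrin signalling were followed in a list of 54 genes, of which 50 could be tested. By edgeR's quasi-likelihood test, *P* values being Benjamini–Hochberg adjusted, 0 of the 50 passed, and 10 had an unadjusted *P* under 0.05, against 1272 of all 14962 genes. The treatments had no overlap of wells in 5, *Flrt1*, *Flrt3* and *Pik3r1* above and *Vasp* and *Cdc42* below, against 6.03% of all genes. DESeq2 called 2 of the list, *Pik3r1* and *Flrt1*, and limma voom 0. Over all genes, DESeq2 called 156 of these 14962, and 0.651% of the 24114 to which it gave a test. There were 23 estimates below 0 and 27 above, with a median of 0.01, against 7637 below and 7325 above over all genes. With the replicate number as a block, 6 of the 50 passed, where 3.98% of all genes did: *Robo1*, *Pik3r1*, *Flrt1* and *Flrt3* were higher with MCH and *Wasl* and *Siah2* lower.

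Of the ligands and co-ligands, 9 were tested, with a median of 0.04. *Flrt1*, which encodes a transmembrane protein that can bind UNC5 receptors, measured 25 ± 2.10 CPM with vehicle and 31.1 ± 1.62 CPM with MCH, a log2 fold change of 0.32 (SE 0.07, adjusted *P* = 0.155 without and 0.0051 with the replicate block by edgeR's quasi-likelihood test). Its relative *Flrt3* measured 44.8 ± 0.914 and 52.0 ± 4.05 CPM, a log2 fold change of 0.21 (SE 0.06, adjusted *P* = 0.266 without and 0.0207 with the block in the same test). In both genes all MCH-treated wells lay above all vehicle-treated wells. *Ntng1*, which encodes the membrane-anchored netrin-G1, measured 21.4 ± 2.60 and 18.8 ± 2.77 CPM, and *Flrt2* 49.7 ± 5.93 and 45.5 ± 3.79 CPM, both with overlap. *Draxin*, whose product is a secreted ligand of DCC, was low, at 3.63 ± 1.05 and 3.85 ± 1.59 CPM.

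Co-receptors and modulators gave 7 tested genes with a median of 0.06. *Robo1*, the Slit receptor that can bind DCC, measured 54.0 ± 4.59 CPM with vehicle and 62.5 ± 7.69 CPM with MCH. *Dscam*, another netrin receptor, measured 127 ± 5.87 and 132 ± 4.13 CPM. Both genes had wells that overlapped between treatments. *Robo1* had a log2 fold change of 0.21 (SE 0.09), with an adjusted *P* of 0.587 without and 0.00847 with the replicate block by edgeR's quasi-likelihood test.

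Of the 34 cytoplasmic effectors tested, 17 estimates lay below 0 and 17 above. *Pik3r1*, the regulatory subunit of phosphoinositide 3-kinase, measured 118 ± 11.4 CPM with vehicle and 144 ± 6.41 CPM with MCH, without overlap. Its log2 fold change was 0.28 (SE 0.07, adjusted *P* = 0.194 without and 0.000133 with the replicate block by edgeR's quasi-likelihood test). *Vasp*, which encodes an actin regulator at the leading edge of growth cones, measured 17.4 ± 0.635 and 15.4 ± 0.239 CPM, also without overlap, a log2 fold change of −0.17 (SE 0.05, adjusted *P* = 0.341 without and 0.132 with the block in the same test). *Siah2*, a ubiquitin ligase of the family that degrades DCC, measured 21.1 ± 2.20 and 17.95 ± 2.12 CPM with overlap, and *Wasl*, an activator of actin branching, 99.6 ± 5.69 and 89.4 ± 6.05 CPM. The kinases next to the receptors gave small estimates, −0.09 for *Ptk2*, −0.05 for *Fyn* and 0.04 for *Src*, and so did the GTPases *Rac1* at 0.00014 and *Cdc42* at −0.06.

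In a list of 42 other axon guidance genes (Slits, Robos, semaphorins, plexins, neuropilins, ephrins and Eph receptors), 0 passed by edgeR's quasi-likelihood test, *P* values being Benjamini–Hochberg adjusted, and 8 had an unadjusted *P* under 0.05, against 1272 of all 14962 genes. With the replicate block, which called 3.98% of all genes, 5 passed, *Nrp1*, *Robo1*, *Epha4* and *Ephb2* higher with MCH and *Efnb2* lower. DESeq2, which called 156 of the 14962 genes, called *Nrp1* alone. There were 31 estimates above 0 and 11 below, with a median of 0.07, against 7325 above and 7637 below over all genes. The direction of the list as a set was not tested. The treatments did not overlap in 4 genes, *Nrp1*, *Plxna1* and *Ephb2* above and *Sema6a* below, against 6.03% of all genes. *Nrp1*, the semaphorin 3A co-receptor, was nearest to the threshold at 233 ± 6.04 CPM with vehicle and 283 ± 18.9 CPM with MCH, a log2 fold change of 0.28 (SE 0.05, adjusted *P* = 0.0838 without and 0.00124 with the block in the same test). *Efna2* had an estimate of 0.25 (SE 0.12), and the ephrin genes *Efnb2* and *Efna5* had −0.16 (SE 0.08) and −0.15 (SE 0.08). The lists share *Robo1*.

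**Figure D5:**
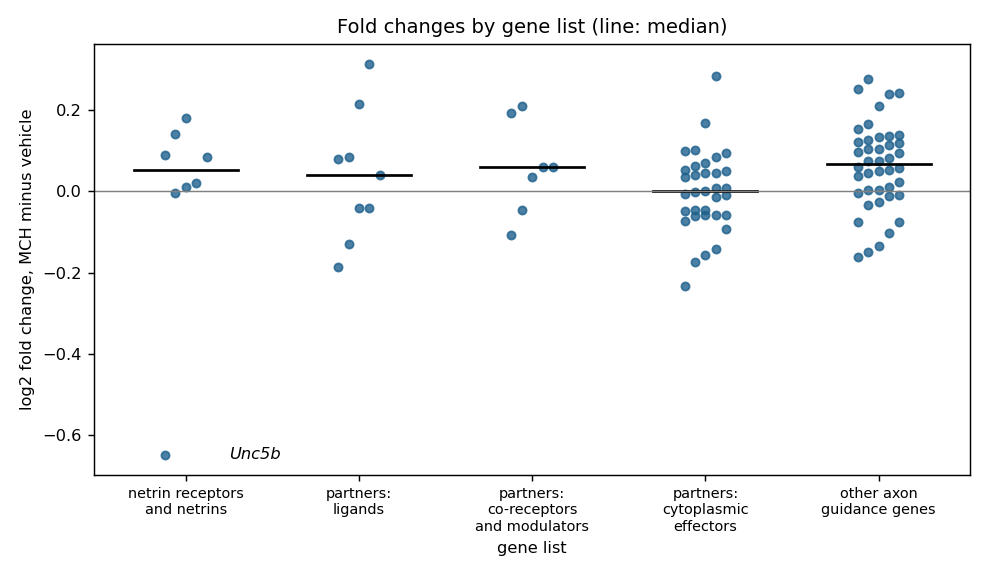
Log2 fold change between MCH and vehicle of the 8 netrin genes, of 3 classes of partners of netrin signalling and of 42 other axon guidance genes, 1 point per gene with a line at the median of each list. The points other than *Unc5b* lie between −0.23 and 0.32, and *Unc5b*, which alone was chosen for its difference between treatments, lies at −0.65.

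The genes whose pattern over the 8 wells was nearest to that of *Unc5b* were found by the root mean square difference of log2 CPM, each gene centred on its own mean. They were *Frmd6* (0.118), *Dusp6* (0.124), *Tbc1d8b* (0.124), *Nppc* (0.140) and *Kcnf1* (0.144). *Dusp6*, which encodes a phosphatase of the kinase ERK, measured 91.9, 86.6, 103 and 93.7 CPM with vehicle and 70.7, 57.8, 73.1 and 66.8 CPM with MCH in replicates 1 to 4. *Nppc*, the gene of C-type natriuretic peptide, measured 12.6 to 14.3 CPM with vehicle and 8.90 to 10.6 CPM with MCH. In all 5 nearest genes the MCH-treated wells lay below the vehicle-treated wells, which follows from their likeness to *Unc5b*. The 7 other netrin genes had differences of 0.361 to 0.456, at ranks 4772 to 11521 of 14961, which likewise follows from the choice of *Unc5b* for its difference between treatments.

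The tables hold 24 transcripts of the 8 genes, of which 12 could be tested. Of the 11 that do not belong to *Unc5b*, 0 passed by edgeR's quasi-likelihood test, *P* values being Benjamini–Hochberg adjusted, and 1, Unc5c-202, had an unadjusted *P* under 0.05. Over all 33527 transcripts tested, 0 passed (0.0%), 1476 had an unadjusted *P* under 0.05, and limma voom also called 0. *Unc5d* and *Neo1*, like *Unc5b*, had 1 transcript. *Dcc* had at least 99.9% of its estimated counts on Dcc-202 in every well. For *Ntn1* all 81 counts of vehicle replicate 2 were assigned to Ntn1-202, which had 0 in the other 7 wells, so that its transcripts cannot be compared at this depth.

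RefSeq promoter windows on GRCm38.p6, from 250 bases before the start site to 50 after it, were given for 5 of the genes (*Unc5a*, *Unc5b*, *Unc5c*, *Neo1* and *Ntn4*) and searched on both strands for TGACGTCA and the shorter TGACG inside it (CRE), TGANTCA (AP-1), AAAGGTCA (NBRE) and GCGTGGGCG (EGR). The single match was 1 TGACG in the window of *Unc5c*, a motif that 17.8% of the 32851 promoters hold. The window of *Unc5b* held none of these motifs. Of all promoters, 1.55% hold TGACGTCA, 6.75% TGANTCA, 1.34% AAAGGTCA and 0.536% GCGTGGGCG. Most promoters thus lack any given one of these motifs, and nothing is read from their absence in *Unc5b*.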

How the data were processed

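Treatments and replicate numbers came from the sample labels, and dose, time and cultures from the study's methods. The authors trimmed, mapped and quantified the stranded poly-A reads in nf-core/rnaseq, a pipeline that runs salmon. The submitters' processing notes name Salmon, R 4.0.3, DESeq2 1.13.0 and GRCm38. The deposited gene table holds estimated counts, unscaled sums over transcripts of which 9.13% are not whole, and the deposited transcript tables hold estimated counts and TPM. GENCODE vM21, perhaps not the authors' annotation, named 45143 of 45706 genes (98.8%).

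Estimated counts were rounded and fitted in R 4.3.3 with edgeR 4.0.16 (TMM, filterByExpr with a minimum count of 10 and total of 15, robust quasi-likelihood test, treatment only), with Benjamini–Hochberg adjustment over 14962 genes and a threshold of 0.05. CPM use the TMM library sizes, log2 CPM a prior count of 2. TPM were summed over the transcripts of a gene. Transcripts were fitted likewise. The SE of an edgeR fit is the absolute log2 fold change divided by the square root of the quasi-likelihood *F* statistic. Alternatives were RLE factors, no filter, DESeq2 1.42.0, limma voom 3.58.1, a transcript length offset, a replicate block, a block for the pairs of replicates, and each well left out. The scripts were tested on simulated data. Columns of per-sample values without a sample numbered 0.

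The genes, lists and tests were chosen with earlier results of these data known. Named genes are the 8 members, the extreme fold changes of each list (3 of the partners and 2 of the guidance genes in each direction, where none passed), the 5 genes most like *Unc5b*, *Mchr1*, cell type markers and transcripts with a mean of 10 counts. Other partners (*Flrt2*, *Draxin*, *Robo1*, *Dscam*, *Wasl*, *Ptk2*, *Fyn*, *Src*, *Rac1*, *Cdc42*) and guidance genes (*Epha4*, *Ephb2*, *Plxna1* and *Sema6a*) were named after their values were seen. *Ntn3* was not matched by symbol, and *Ntn5*, *Adora2b* and *Lrig3* were under the filter.

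The pairing of wells by replicate number was checked by correlating their log2 CPM after each treatment mean was subtracted. Wells of the same number correlated at 0.445 to 0.545, wells of the other number in the same pair of replicates at 0.475 to 0.521, and wells across the pairs at −0.548 to −0.438. All 4 same-number correlations exceeded 0.1, the rule for pairing, but so did those of the other number in the same pair of replicates. The values thus set the pairs of replicates apart. They cannot decide the pairing by number, because both kinds of correlation pass the rule and their ranges overlap. The replicate block takes that pairing as given, as neither labels nor methods say what a number marks.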

Additional observations from a re-analysis of the deposited data

Results flagged for a closer look

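The level of *Unc5d* in vehicle replicate 3, 93.8 CPM, stood apart from the other vehicle-treated wells, of which the nearest was 86.2 CPM. The gap was 0.832 of the range of the 4 wells, above the limit of Dixon's test for 4 values. The 8 genes gave 16 groups of 4 wells, 1 of which stood apart in this way, and chance gives about 1 in 20.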

How the results depend on the processing

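Of the 7 genes other than *Unc5b*, 0 were called on all 8 wells, in each of the 8 alternatives and in each of the 8 fits with a well left out. *Unc5b* had log2 fold changes of −0.65 to −0.64 in the alternatives and −0.71 to −0.57 with a well left out. Nothing is read from this kept direction, because *Unc5b* was chosen for its difference in these same wells, which did not overlap between treatments. Over all genes, 35 were called, against 596 with the replicate block, 668 with the block for the pairs of replicates, 157 with DESeq2, 118 with DESeq2 and a length offset, and 7 with edgeR and a length offset. Among the partners, the replicate block and the block for the pairs each called 6, and DESeq2 with or without the offset called 2, against 0. Among the other guidance genes these counts were 5, 6 and 1, against 0. With a well left out, 4 to 29 genes were called (4 without vehicle replicate 4, 5 without vehicle replicate 1, 9 without vehicle replicate 2, 7 without MCH replicate 4, 10 without MCH replicate 3 and 12 without MCH replicate 2), 0 of them in either list, and 0 to 1 transcripts. The cause of these changes was not tested.

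Estimates near 0 changed sign. *Ntn4* was at 0.10 with edgeR and 0.093 with DESeq2 under the length offset, and between −0.23 and 0.14 with a well left out. *Ntn1* lay between −0.15 and 0.18 and *Unc5d* between −0.012 and 0.061 with a well left out, *Unc5d* being below 0 without MCH replicate 1. The lowest depth was that of *Ntn1*, at 81 to 165 counts per well.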
